A study of Mus musculus with 24 samples.

Results

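The mammary luminal and milk genes are genes that mark the luminal cells of the mammary gland or encode the proteins these cells secrete into milk. They were chosen by symbol from a list of 10: Wap, Csn1s1, Csn2, Csn3, Lalba, Prlr, Elf5, Gata3, Foxa1 and Esr1. Of these, 7 are among the 12091 genes of the deposited table. Wap, Foxa1 and Esr1 were not analysed here.

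The study measured RNA by sequencing in mouse breast cancer models in which pleiotrophin (Ptn), a secreted growth factor, was blocked or lowered. It has 24 samples in 8 groups of 3, and each sample comes from its own tumor or culture. MMTV-PyMT tumors arose in FVB/N mice that carry the polyoma middle T antigen under a promoter active in mammary epithelium. The 4T1 tumors grew in BALB/c mice from implanted cells of a mammary carcinoma line. In each tumor model 1 group received 3B10, a mouse antibody against Ptn, at 15 mg/kg, and the other received the control mouse IgG C44. E0771, a C57BL/6 mammary carcinoma line, and E0771-LG, its derivative from a lung metastatic lesion, were cultured with a control vector targeting EGFP (shCtrl) or with 1 hairpin against Ptn (shPTN). Knockdown and control cells were separate puromycin-selected populations, so the hairpin and the selection of a population cannot be told apart.

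Milk proteins are made by luminal alveolar cells, in which prolactin binds the receptor Prlr, JAK2 phosphorylates STAT5, and STAT5 acts on casein genes together with other factors. Elf5 is an ETS-family factor of luminal progenitors and alveolar cells, and Gata3 maintains luminal identity. The caseins Csn1s1 (alpha-S1), Csn2 (beta) and Csn3 (kappa) form the micelles of milk, and Lalba, alpha-lactalbumin, is a subunit of the enzyme that makes lactose.

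The 3 caseins lie together on chromosome 5. In build GRCm38, Csn1s1 (ENSMUSG00000070702) is at chr5:87666208-87682578 on the plus strand, Csn2 (ENSMUSG00000063157) at chr5:87692624-87699630 on the minus strand, and Csn3 (ENSMUSG00000001622) at chr5:87925579-87932665 on the plus strand. The span from Csn1s1 to Csn3 is 266 kb and holds 7 protein-coding genes in GENCODE M21, of which Csn1s1, Csn2, Csn1s2a and Csn3 are in the table. Lalba (ENSMUSG00000022991) is at chr15:98480400-98482721 and Prlr (ENSMUSG00000005268) at chr15:10177238-10349180. Elf5 (ENSMUSG00000027186) is at chr2:103411688-103450989 and Gata3 (ENSMUSG00000015619) at chr2:9857078-9890034. Exons of other annotated genes touch those of Csn3 (1700066N21Rik, other strand), Gata3 (Gm13256, other strand, and 9230102O04Rik, same strand) and Prlr (Gm21973, same strand). The strand used for counting is not stated, so reads of these neighbours may be counted in these 3 members.

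Csn1s1 and Csn2 are the members whose levels moved most closely together in MMTV-PyMT tumors, so their promoters were compared. RefSeq promoters of build GRCm38.p6 matched 6 of the 7 members, with 9 promoters in all, and Csn3 had none. The palindrome TTCNNNGAA, the core to which STAT5 and other STAT factors bind, reads the same on both strands and was searched in the 250 bases before each start. It is present in the promoters of Csn1s1 (TTCTTAGAA, positions −100 to −92 from the start), Csn2 (TTCTTGGAA, −93 to −85) and in 1 of 3 promoters of Prlr (TTCTAGGAA, −110 to −102). Of all 32851 promoters, 7.02% hold this motif in the same window. The longest run of bases shared by the Csn1s1 and Csn2 windows is CCACAAAATT, at −61 to −52 in Csn1s1 and at −55 to −46 in Csn2. This run begins 30 bases after the motif in Csn1s1 and 29 bases after it in Csn2, and on either strand it is in 20 of the 32851 promoters (0.0609%). A match is a description of the letters and not a measured binding site. The run was picked as the longest that this pair shares. How often other pairs of promoters share a run of this length was not tested, so no conclusion is drawn from its share. The Csn1s1 window, chr5:87665958-87666207 on the plus strand, is shown 5′ to 3′ with the motif and then the shared run in capitals. Of the Csn2 window, 205 of 250 bases lie in exons that GENCODE annotates for a longer Csn2 transcript, and only its matches are given.
Csn1s1: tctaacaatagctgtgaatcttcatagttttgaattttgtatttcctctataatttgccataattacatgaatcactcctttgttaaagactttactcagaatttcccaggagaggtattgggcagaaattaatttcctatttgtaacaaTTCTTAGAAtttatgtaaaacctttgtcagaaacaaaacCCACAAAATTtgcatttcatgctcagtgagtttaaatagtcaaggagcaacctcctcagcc

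The deposited log2 values of the MMTV-PyMT tumors and of the cells are log2 CPM, counts scaled to library depth, with an offset of 0.5 reads, and reads per gene could be recovered from them. Depth was 19.18, 19.25 and 18.76 M reads in the C44 tumors of the MMTV-PyMT model and 16.29, 18.44 and 16.26 M in its 3B10 tumors, so each C44 library was larger. In cells it ranged from 15.63 to 21.12 M. The 4T1 values are on another scale, with a floor of −0.98 and an unknown depth, and their levels are compared only with each other. They have no steps of whole reads and may be normalized to transcript length, which is not stated, so their sums and the order of genes within them are not those of CPM. Differences of genes near this floor are compressed. Differences were tested by limma within each experiment, with p-values adjusted over all genes tested, and passed at an adjusted p under 0.05. For a single gene, 3 samples against 3 allow an exact permutation p no smaller than 0.1.

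In MMTV-PyMT tumors all 7 members were expressed. Csn3 was the highest of them per length of transcript, with 6791 ± 2720 CPM per kb (SD, n = 3) in C44 tumors and 5114 ± 1663 in 3B10 tumors. Lalba had 1177 ± 747 CPM per kb in C44 and 1461 ± 1045 in 3B10 tumors. In C44 tumors Elf5 (188 ± 21.6 CPM per kb) and Gata3 (75.1 ± 7.66) followed, then Csn1s1 (61 ± 60.2), Csn2 (32.2 ± 38.1) and Prlr (8.87 ± 3.3). In that order Csn3, Lalba, Elf5 and Gata3 did not overlap as neighbours, while Gata3, Csn1s1, Csn2 and Prlr did. In 3B10 tumors the mean of Csn2 was 432 ± 538 CPM per kb and that of Csn1s1 276 ± 211, above Elf5 (225 ± 22), Gata3 (78.7 ± 29.4) and Prlr (10.4 ± 0.799). There Lalba, Csn2, Csn1s1 and Elf5 overlapped as neighbours, while Csn3 was apart from Lalba, Elf5 from Gata3 and Gata3 from Prlr. Csn3 alone took between 0.648% (Wilson 95% CI 0.644 to 0.651) of all reads in 3B10 tumor 3 and 1.58% (1.58 to 1.59) in C44 tumor 3. These intervals, and the limits given for counts of 0, cover counting error only.

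**Figure D1:**
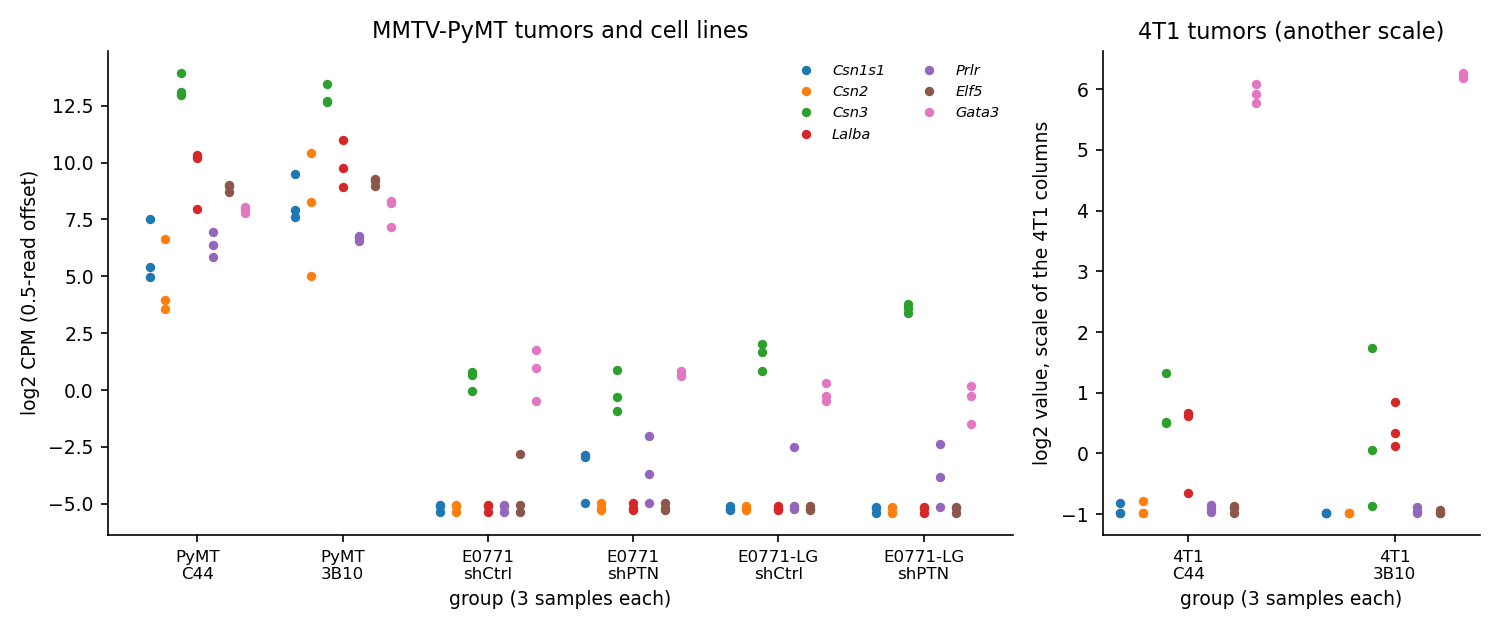
Level of each member in each group, in log2 CPM for MMTV-PyMT tumors and cells and, in a separate panel with its own scale, in deposited log2 values for 4T1 tumors; points are samples. All members are well above the lowest values in MMTV-PyMT tumors, while in cells Csn3 and Gata3 are the members with more than 12 reads in all.

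The 2 caseins Csn1s1 and Csn2 had the most variable levels of the members. Over the 6 MMTV-PyMT tumors the SD of Csn2 was 2.67 on the log2 scale, which ranks 4 of 11361 genes tested, and its highest level was 118 times its lowest. Csn1s1 had an SD of 1.69 (rank 33) and a 23.5-fold range, and Lalba an SD of 1.10 (rank 175) and an 8.21-fold range. The SDs of Csn3 (0.49), Gata3 (0.41) and Prlr (0.39) were also above the median of all genes, 0.24, and that of Elf5 (0.20) was below it.

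The comparison of 3B10 with C44 in MMTV-PyMT tumors asks whether these genes differ when Ptn is blocked. The mean levels of Csn1s1 and Csn2 were several-fold higher with 3B10, the other members differed by at most 0.39 on the log2 scale, and 0 of the 7 members passed the test. By limma 0% of 11361 genes passed in this comparison. An unadjusted p under 0.05 was reached by 307 genes, among them 1 member, Csn1s1. The difference was above zero for 5 of the 7 members, and the median over all genes was 0.05. Csn1s1 was also the 1 member whose groups did not overlap, as was so for 8.34% of all genes tested.

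Csn1s1 had 5.43, 7.52 and 4.96 log2 CPM in C44 tumors 1, 2 and 3, and 7.90, 7.62 and 9.52 in 3B10 tumors 1, 2 and 3. Each 3B10 tumor was above each C44 tumor, but C44 tumor 2 was just below 3B10 tumor 2 and far above the other two C44 tumors. On the log2 scale the difference was 2.37 (SE 0.74, limma adjusted p = 1), or 5.19-fold, with a 95% CI of 1.56 to 17.2 before adjustment over genes. The log2 difference was 1.79 without 3B10 tumor 3 and 3.15 without C44 tumor 2. These values rest on 584 to 3542 reads per C44 tumor and 3633 to 11922 reads per 3B10 tumor. In bulk tumors, more secretory cells and more casein RNA per cell cannot be told apart.

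Csn2 had 3.56, 6.66 and 3.96 log2 CPM in the C44 tumors and 8.25, 5.02 and 10.44 in the 3B10 tumors. The groups overlapped, with C44 tumor 2 above 3B10 tumor 2. The difference was 3.18 (SE 1.38, adjusted p = 1 by limma), 9.04-fold with a 95% CI from 0.965 to 84.7, and 1.91 without 3B10 tumor 3. In reads, Csn2 ranged from 225 in C44 tumor 1 to 22510 in 3B10 tumor 3.

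Csn3, the casein that caps the surface of micelles, had 12.96, 13.09 and 13.95 log2 CPM in the C44 tumors and 12.73, 13.45 and 12.66 in the 3B10 tumors. Its highest tumor was C44 tumor 3, in which Csn1s1 was at its lowest, and its lowest was 3B10 tumor 3, in which Csn1s1 and Csn2 were at their highest. The groups overlapped, and the difference was −0.39 (SE 0.35, adjusted p = 1 by limma), with −0.08 without C44 tumor 3 and −0.64 without 3B10 tumor 2. Lalba had 10.35, 10.19 and 7.95 log2 CPM in the C44 tumors and 9.76, 10.99 and 8.92 in the 3B10 tumors. C44 tumor 3 was low and 3B10 tumor 2 high, the groups overlapped, and the difference was 0.39 (SE 0.74, adjusted p = 1 by limma). Leaving out single tumors moved this difference between −0.38, without C44 tumor 3, and 0.88, without 3B10 tumor 3, and it was −0.16 without 3B10 tumor 2.

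The receptor Prlr ranged from 5.85 to 6.94 log2 CPM over the C44 tumors and from 6.56 to 6.78 over the 3B10 tumors, and its difference was 0.29 (SE 0.26), with 0.03 without C44 tumor 1 and 0.57 without C44 tumor 3. Elf5 ranged from 8.70 to 9.02 in C44 and from 8.99 to 9.28 in 3B10 tumors, with a difference of 0.26 (SE 0.16), or 0.16 without C44 tumor 3. Gata3 ranged from 7.77 to 8.06 in C44 and from 7.18 to 8.32 in 3B10 tumors, with a difference of −0.01 (SE 0.29). The groups overlapped for each of these genes, and each had an adjusted p of 1 by limma. Without 3B10 tumor 3, the lowest for Gata3, its difference was 0.35, without C44 tumor 1 it was 0.06, and without 3B10 tumor 2 it was −0.22. Ptn itself, the target of the antibody, had 2.80, 2.73 and 3.42 log2 CPM in C44 and 3.28, 2.95 and 4.22 in 3B10 tumors, a difference of 0.50 (SE 0.37, adjusted p = 1 by limma) with overlapping groups. Without 3B10 tumor 3 the difference of Ptn was 0.13, and without 3B10 tumor 2 it was 0.77.

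**Figure D2:**
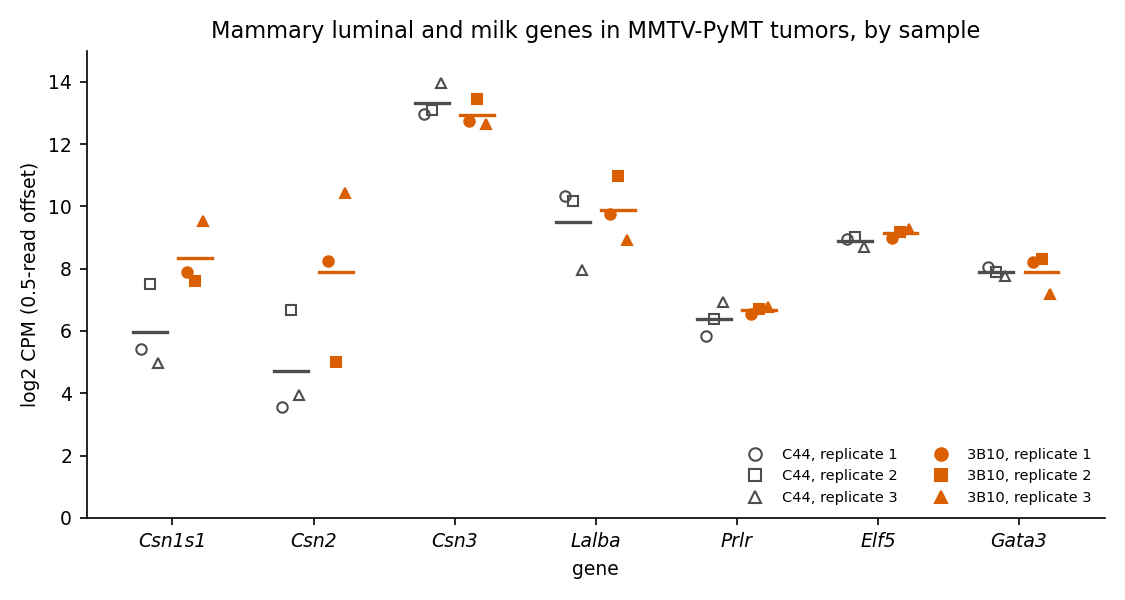
Log2 CPM of the 7 members in each MMTV-PyMT tumor, with open points for C44, filled points for 3B10 and bars for group means (n = 3 each). Csn2 and Csn1s1 spread over 6.88 and 4.56 log2 units, whereas Elf5 spreads over 0.58.

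The make-up of the milk protein reads differed between tumors. Reads of Csn1s1, Csn2, Csn3 and Lalba together were 0.932% (Wilson 95% CI 0.928 to 0.936), 1.02% (1.01 to 1.02) and 1.61% (1.61 to 1.62) of all reads in the C44 tumors. In the 3B10 tumors they were 0.82% (0.815 to 0.824), 1.35% (1.34 to 1.35) and 0.908% (0.903 to 0.912). Of these milk protein reads, Csn2 made up 0.126% (0.11 to 0.143), 0.994% (0.951 to 1.04) and 0.0962% (0.0858 to 0.108) in C44 tumors and 3.72% (3.62 to 3.82), 0.24% (0.221 to 0.26) and 15.3% (15.1 to 15.4) in 3B10 tumors. Csn3 made up 85.4% (85.3 to 85.6), 85.7% (85.5 to 85.8) and 98.2% (98.1 to 98.2) in C44 tumors and 82.8% (82.6 to 83), 83.2% (83.1 to 83.4) and 71.3% (71.1 to 71.6) in 3B10 tumors. In every tumor Csn3 gave most of the milk protein reads, and 3B10 tumor 3 had both the largest share of Csn2 and the smallest share of Csn3.

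Across the 6 tumors Csn2 and Csn1s1 had a Pearson correlation of 0.91, and Csn1s1 and Elf5 one of 0.87. The correlation of Csn3 was −0.71 with Csn2 and −0.67 with Csn1s1. These are descriptions over 6 tumors of 2 treatment groups, without a test. The genes outside the members whose log2 levels were most correlated with the mean of the 4 milk protein members, among 11354 genes compared, were Csnk2a2 (r = 0.996), Ahcy (0.995), Isyna1 (0.993), Npepl1 (0.992), Rwdd2b (0.991) and Rbck1 (0.990). They were picked as the highest of 11354 values over only 6 tumors, and no test was made. Csn2 and Csn1s1, the most variable members, weigh most in this mean, and Csn3 ran against both. Csnk2a2 lay between 5.80 log2 CPM in C44 tumor 3 and 6.31 in 3B10 tumor 3, Isyna1 between 5.86 and 7.61 and the mean of the milk protein members between 7.70 and 10.38 in the same tumors.

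**Figure D3:**
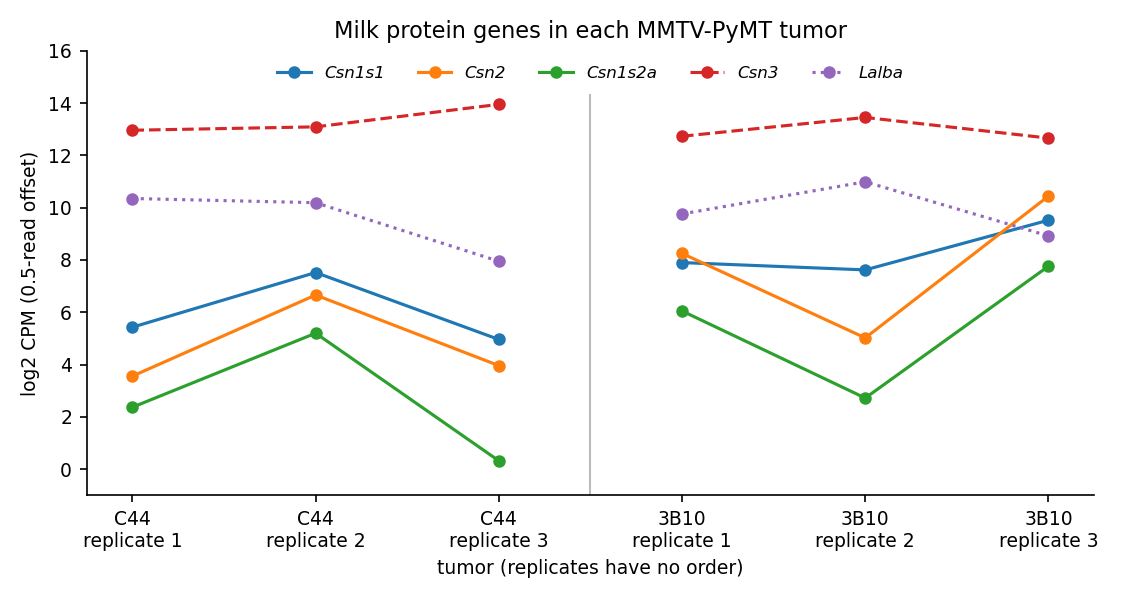
Log2 CPM of Csn1s1, Csn2, Csn1s2a, Csn3 and Lalba in each of the 6 MMTV-PyMT tumors, where lines only join the points of a gene. Csn1s1, Csn2 and Csn1s2a are highest in 3B10 tumor 3, in which Csn3 is lowest.

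Among other genes of milk secretion, 11 of 16 listed were in the table, 0 of the 11 passed by limma in MMTV-PyMT tumors, 2 had an unadjusted p under 0.05, and 7 were above zero (median 0.19). Csn1s2a, a casein that lies between Csn2 and Csn3, had 2.37, 5.20 and 0.32 log2 CPM in the C44 tumors and 6.05, 2.72 and 7.76 in the 3B10 tumors. Its 4 highest tumors came in the same order as those of Csn2, with overlapping groups, and its difference was 2.88 (SE 1.52), from 1.72 without C44 tumor 3 to 4.27 without 3B10 tumor 2. Btn1a1, a protein of the milk fat globule membrane, differed by 1.13 (SE 0.42, or 0.74 without 3B10 tumor 3), and Slc34a2, a phosphate transporter, by 0.52 (SE 0.19). Of genes of prolactin and STAT5 signalling 0 of 16 passed, 1 had an unadjusted p under 0.05 and 7 were above zero (median −0.02). They include Cish, a feedback inhibitor induced by STAT5 (0.52, SE 0.21), Stat5a (0.41, SE 0.27, from 0.23 without 3B10 tumor 1 to 0.73 without 3B10 tumor 3) and the receptor Erbb4 (−0.88, SE 0.88, from −1.57 without 3B10 tumor 1 to 0.13 without 3B10 tumor 3).

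Of hormone-sensing luminal genes 0 of 5 passed in MMTV-PyMT tumors, 0 had an unadjusted p under 0.05 and 3 were above zero (median 0.16). Areg, the amphiregulin gene induced by estrogen, differed by 0.73 (SE 0.67, from 0.21 without C44 tumor 2 to 1.28 without C44 tumor 1), Xbp1 by 0.16 (SE 0.23) and Prom1 by −0.33 (SE 0.67). Xbp1 was at −0.06 without 3B10 tumor 3 and 0.33 without 3B10 tumor 1, and Prom1 at −0.88 without C44 tumor 2, 0.36 without C44 tumor 3 and 0.11 without 3B10 tumor 2. Of general luminal epithelial genes 0 of 16 passed, 0 had an unadjusted p under 0.05 and 4 were above zero (median −0.07). Cldn3 differed by −0.23 (SE 0.16), Ehf by −0.19 (SE 0.18, or −0.04 without C44 tumor 3) and Epcam by −0.20 (SE 0.19, from −0.31 without C44 tumor 2 to −0.05 without C44 tumor 1). Their summed level was 8279, 7817 and 6676 CPM in the C44 tumors and 6855, 7229 and 6315 in the 3B10 tumors, with overlapping groups and with Krt8 or Epcam the most abundant gene, and 0 of the 16 genes were at 0 in any tumor. All named genes of these 4 lists had an adjusted p of 1 by limma.

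Markers of other cell types were measured in the same tumors. Of the adipocyte genes tested 3 of 3 were above zero (median 0.52), 2 had an unadjusted p under 0.05, and their summed level was 30.4, 32.7 and 19.5 CPM in C44 and 86.5, 31.1 and 30.6 in 3B10 tumors, with Cfd the most abundant in 3B10 tumor 1 and Lipe in the others. Basal and myoepithelial genes were above zero in 6 of 10 (median 0.05, 1 at an unadjusted p under 0.05), with sums of 210, 552 and 137 CPM in C44 and 420, 303 and 332 in 3B10 tumors and Krt14 the most abundant. Fibroblast genes were above zero in 0 of 7 (median −0.18), leukocyte genes in 4 of 9 (median −0.04), skeletal muscle genes in 1 of 6 (median −0.52) and endothelial genes in 3 of 4 (median 0.08), each with 0 at an unadjusted p under 0.05. Of these 6 lists 0 genes passed by limma. The part of these cell types and of the larger C44 libraries in the casein differences was not tested.

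4T1 tumors contained little RNA of the milk protein members Csn1s1, Csn2, Csn3 and Lalba. Csn1s1, Csn2, Elf5 and Prlr lay between −0.98 and −0.78 in all 6 tumors, at or near the floor, and were not tested. Csn3 was low, with deposited values of 0.50, 0.51 and 1.33 in C44 and −0.87, 0.06 and 1.73 in 3B10 tumors, and was not tested either. The comparison of 3B10 with C44 thus covered 2 members, Gata3 and Lalba, and 0 of these passed by limma, as did 0% of the 11467 genes tested. Gata3 was the 1 member with an unadjusted p under 0.05, as 719 genes were, and the 1 member whose groups did not overlap, as was so for 11.3% of genes.

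Gata3 had values of 5.78, 5.92 and 6.09 in the C44 tumors and 6.27, 6.18 and 6.20 in the 3B10 tumors. Each 3B10 tumor was above each C44 tumor, though C44 tumor 3 came close to the 3B10 tumors. The difference was 0.29 (SE 0.12, adjusted p = 0.791 by limma), 1.22-fold. Lalba had −0.65, 0.67 and 0.61 in the C44 tumors and 0.12, 0.84 and 0.34 in the 3B10 tumors, with overlapping groups and a difference of 0.23 (SE 0.41, adjusted p = 0.973 by limma), which was −0.20 without C44 tumor 1 and 0.46 without C44 tumor 2.

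General luminal epithelial genes were mostly higher in the same 3B10 tumors of the 4T1 model. Of 14 tested, 13 were above zero with 3B10 (median 0.44, against 0.01 over all genes), 5 had an unadjusted p under 0.05 and 0 passed by limma. The summed level of the 16 genes in the table was 3602, 4062 and 4030 in the C44 tumors and 5422, 5386 and 5619 in the 3B10 tumors, with Krt18 the most abundant gene and Ehf at the floor in 3B10 tumor 3. Each 3B10 tumor was above each C44 tumor in this sum. Epcam, an epithelial adhesion molecule, differed by 0.87 (SE 0.22, adjusted p = 0.722 by limma), and the keratins Krt18 by 0.45 (SE 0.12, adjusted p = 0.722) and Krt8 by 0.40 (SE 0.13, adjusted p = 0.725).

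Genes of leukocytes and of skeletal muscle were measured in the same 4T1 tumors. Of the leukocyte genes 0 of 11 were above zero (median −0.72, 8 at an unadjusted p under 0.05), and their summed level was 10309, 7356 and 9908 in C44 and 4244, 7031 and 4507 in 3B10 tumors, with Lyz2 the most abundant and 0 genes at the floor. Of the skeletal muscle genes 5 of 5 were above zero (median 2.73, 5 at an unadjusted p under 0.05), and their sum was 32.7, 28.6 and 60.6 in C44 and 75.9, 213 and 362 in 3B10 tumors. Tnni2 was the most abundant muscle gene in 4 of the 6 tumors, and Myh4 was at the floor in C44 tumors 2 and 3. Basal and myoepithelial genes were above zero in 5 of 8 (median 0.18) and fibroblast genes in 5 of 7 (median 0.26), each with 2 at an unadjusted p under 0.05. Adipocyte genes were above zero in 1 of 3 (median −0.00) and endothelial genes in 0 of 4 (median −0.25), each with 0 at an unadjusted p under 0.05. Of these lists 0 genes passed by limma, and their part in the difference of Gata3 was not tested.

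The other mammary lists in 4T1 tumors had medians nearer to that of all genes. Of milk secretion genes 0 of 5 passed, 1 had an unadjusted p under 0.05 and 3 were above zero (median 0.03). Ltf, lactoferrin, differed by −1.03 (SE 0.26, adjusted p = 0.722 by limma), Mfge8 by 0.24 (SE 0.10) and Xdh by −0.58 (SE 0.40, from −0.97 without C44 tumor 3 to −0.27 without 3B10 tumor 3). Leukocyte genes were above zero in 0 of 11 in the same tumors (median −0.72), and the part of leukocytes in the difference of Ltf was not tested. Of prolactin and STAT5 genes 0 of 15 passed, 2 had an unadjusted p under 0.05 and 3 were above zero (median −0.18), with Id2 at −0.57 (SE 0.17), the feedback inhibitor Socs3 at −0.41 (SE 0.13) and Stat5a at −0.30 (SE 0.17). Of hormone-sensing genes 0 of 3 passed, 0 had an unadjusted p under 0.05 and 2 were above zero (median 0.07), with Tbx3 at 0.18 (SE 0.19, or 0.10 without 3B10 tumor 2), Areg at −0.28 (SE 0.49) and Xbp1 at 0.07 (SE 0.13). Areg was at −0.56 without C44 tumor 2, 0.25 without C44 tumor 1 and 0.10 without 3B10 tumor 2, and Xbp1 at −0.01 without 3B10 tumor 2 and 0.14 without C44 tumor 3.

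Whether the effect of 3B10 differed between the tumor models was tested for the 2 members that both models could give. By limma 0 of the 2 passed, 0 had an unadjusted p under 0.05, and 0% of 10890 genes passed, with 252 at an unadjusted p under 0.05. The effect in MMTV-PyMT minus that in 4T1 tumors was 0.16 for Lalba (SE 0.90, adjusted p = 1) and −0.30 for Gata3 (SE 0.34, adjusted p = 1). Without C44 tumor 3 or 3B10 tumor 2 of the MMTV-PyMT model Lalba was at −0.61 or −0.39, and without C44 tumor 2 or 3 of the 4T1 model at −0.07 or −0.04. Gata3 was at 0.06 without 3B10 tumor 3 of the MMTV-PyMT model. Lalba lay near the floor in 4T1 tumors, so its effects in the models are not on an equal footing. For Csn1s1 and Csn2 the difference between the models was not tested, since both were at or near the floor in 4T1 tumors.

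**Figure D4:**
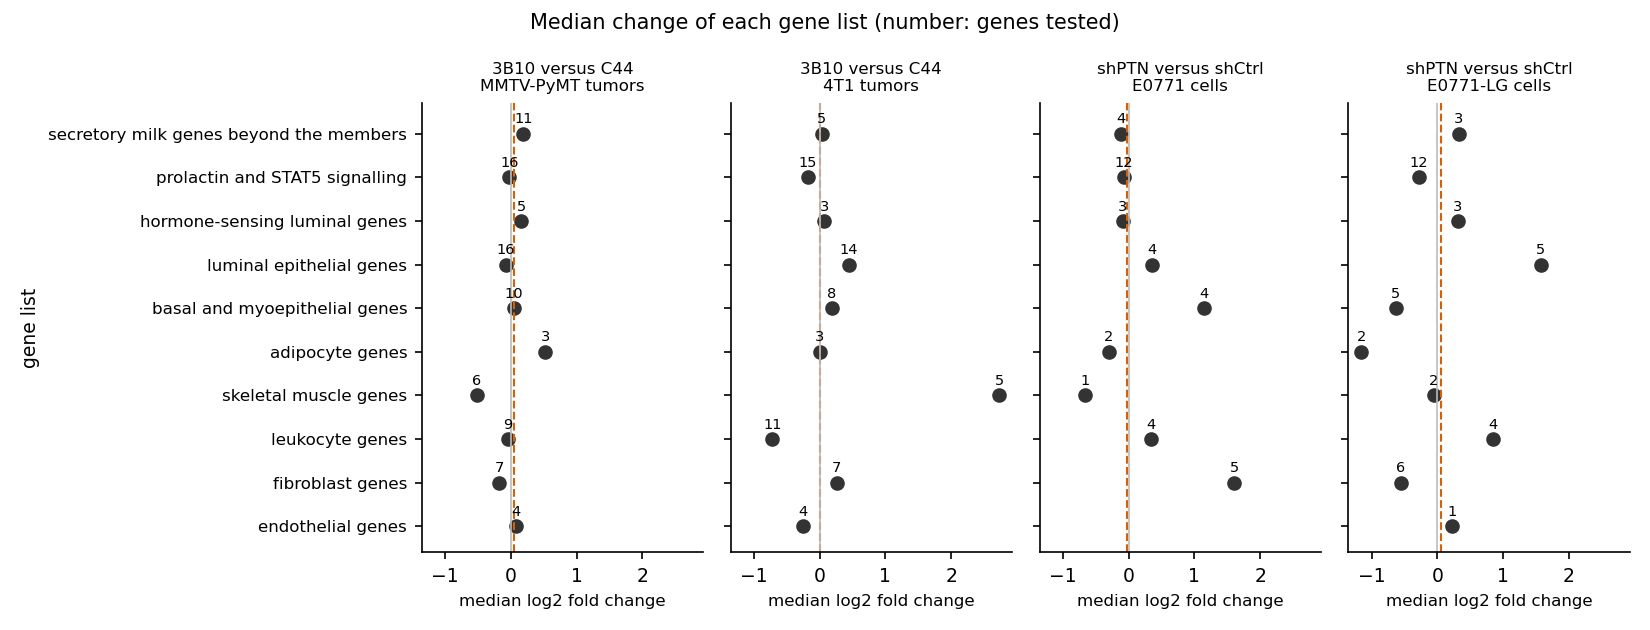
Median log2 fold change of each gene list in the 4 treatment comparisons, where numbers give the genes tested and the dashed line is the median of all genes. The median of luminal epithelial genes is −0.07 for MMTV-PyMT tumors, 0.44 for 4T1 tumors, 0.36 for E0771 and 1.57 for E0771-LG. The sets of genes tested differ, and that of E0771-LG includes Krt18, which could enter there only as a rise and was not tested in E0771.

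The cultured lines had almost no RNA of Csn1s1, Csn2 and Lalba, and little of Csn3. Over the 12 cell samples, with 219.4 M reads together, Csn2 and Lalba had 0 reads, which allows a level of up to 0.0137 CPM. Csn1s1 had 4 reads, Elf5 2 and Prlr 12 in all. Csn3 and Gata3 had 983 and 284 reads, or means per group between 0.643 and 7.61 CPM per kb for Csn3 and between 0.233 and 0.62 for Gata3. In MMTV-PyMT C44 tumors the same scale gave 6791 for Csn3 and 75.1 for Gata3. Luminal epithelial markers were low as well: Cldn3 and Cldn4 had 0 reads in all 12 samples, Krt8 was the most abundant gene of the list, and the summed level of its 16 genes was 103, 122 and 114 CPM in E0771 shCtrl cells.

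In E0771 cells Ptn was lower with its hairpin, and the groups overlapped for both members tested. Ptn had 2.90, 2.18 and 2.28 log2 CPM in shCtrl and −0.63, 0.25 and 0.53 in shPTN samples, so each shPTN sample was below each shCtrl sample. Of the 2 members tested, Csn3 and Gata3, 0 passed by limma and 0 had an unadjusted p under 0.05, whereas 20.6% of the 10394 genes passed and 39.4% had groups that did not overlap. Csn3 had −0.06, 0.80 and 0.67 log2 CPM in shCtrl and 0.88, −0.93 and −0.32 in shPTN samples. The highest and the lowest of these 6 values were both in shPTN samples, on 35 and 9 reads, and the difference was −0.59 (SE 0.52, adjusted p = 0.457 by limma), with −1.09 and −0.19 without these samples in turn. Gata3 had −0.46, 0.95 and 1.77 in shCtrl and 0.84, 0.61 and 0.65 in shPTN samples, where the shCtrl samples lay on both sides, and the difference was −0.05 (SE 0.51, adjusted p = 0.958). Without shCtrl replicates 1, 2 and 3 in turn it was −0.66, 0.05 and 0.45.

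Of the mammary lists in E0771 cells, where 20.6% of all genes passed, 4 milk secretion genes were tested, 0 passed and 0 had an unadjusted p under 0.05 (median −0.11, against −0.03 over all genes). Xdh differed by −0.16 (SE 0.09, or −0.09 without shCtrl replicate 2), Mfge8 by 0.12 (SE 0.10, from 0.01 without shPTN replicate 1 to 0.21 without shPTN replicate 2) and Muc1 by −0.26 (SE 0.40, 0.00 without shPTN replicate 3 and −0.67 after quantile normalization). Of 12 prolactin and STAT5 genes 3 rose and 2 fell (median −0.07). Cav1, the caveolin-1 gene, rose by 0.81 (SE 0.10, adjusted p = 0.00041 by limma), Ccnd1, cyclin D1, rose by 0.49 (SE 0.08, adjusted p = 0.0019), and Ghr, the growth hormone receptor, fell by 0.49 (SE 0.11, adjusted p = 0.0101). Of 3 hormone-sensing genes 1 rose and 1 fell (median −0.09): Areg fell by 1.66 (SE 0.32, adjusted p = 0.00809) and Tbx3 rose by 0.60 (SE 0.19, adjusted p = 0.0483), while Xbp1 differed by −0.09 (SE 0.10, or −0.15 without shCtrl replicate 1). Of 4 luminal epithelial genes 0 passed and 1 had an unadjusted p under 0.05 (median 0.36), with Epcam at 0.60 (SE 0.20, adjusted p = 0.054), Grhl2 at 0.46 (SE 0.52, from 0.10 without shCtrl replicate 2 to 0.85 without shCtrl replicate 3) and Elf3 at 0.26 (SE 0.34, from −0.10 without shCtrl replicate 1 to 0.59 without shCtrl replicate 2). With the replicate number as a block Areg no longer passed (adjusted p = 0.0761). Ghr no longer passed without shPTN replicate 3 (−0.46, adjusted p = 0.0538), and Epcam passed in 5 of 15 alternatives, without shPTN replicate 2 (0.68, adjusted p = 0.0416), after median-of-ratios (0.63) or quantile (0.64) scaling, with the block and in a fit of 12 samples together. Tbx3 no longer passed without shCtrl replicate 1 (0.51) or 3 (0.53), or without shPTN replicate 1 (0.64), 2 (0.60) or 3 (0.56), with no filter (adjusted p = 0.0603), by voom (0.58, adjusted p = 0.0558) or with the block (adjusted p = 0.058).

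Lists of other cell types were measured in E0771 cells as well, in which 20.6% of all genes passed. All 5 fibroblast genes tested rose (median 1.61), with sums of 74.8, 101 and 86.3 CPM in shCtrl and 331, 293 and 330 in shPTN samples. Of 4 basal and myoepithelial genes 2 rose (median 1.14), and of 4 leukocyte genes 2 rose (median 0.34). By limma 0 of 2 adipocyte genes (median −0.30) and 0 of 1 skeletal muscle gene (−0.66) passed, with 0 at an unadjusted p under 0.05, and no endothelial gene was high enough to be tested.

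In E0771-LG cells Csn3 rose with the knockdown. Csn3 had 0.86, 2.02 and 1.68 log2 CPM in shCtrl and 3.37, 3.62 and 3.79 in shPTN samples. Each shPTN sample was above each shCtrl sample, on 218 to 241 reads against 31 to 79. The rise was 2.07 on the log2 scale (SE 0.30, limma adjusted p = 0.00038), 4.21-fold with a 95% CI of 2.66 to 6.66. Csn3 was the 1 member high enough to be tested in this line. This is 1 of 1, beside 46.4% of 10405 genes that passed and 57.1% whose groups did not overlap. Even so, its level in shPTN cells was 7.61 ± 1.1 CPM per kb (SD, n = 3), under the lowest MMTV-PyMT tumor at 4057. Gata3 was not tested and had −0.25, 0.32 and −0.46 log2 CPM in shCtrl and −1.49, 0.18 and −0.27 in shPTN samples, with overlapping groups.

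Ptn was also lower with its hairpin in E0771-LG cells. It had 3.65, 4.51 and 3.74 log2 CPM in E0771-LG shCtrl and 1.42, 0.98 and 1.38 in shPTN samples, and each shPTN sample was below each shCtrl sample. Ptn fell by 2.71 (SE 0.28, limma adjusted p = 6.3e-05) in E0771-LG cells and fell by 2.40 (SE 0.37, adjusted p = 0.00159) in the parent line. The difference between the lines was −0.30 (SE 0.48, adjusted p = 0.647), with a 95% CI of −1.33 to 0.72, and from −0.64 to −0.03 over the alternatives, so a difference in knockdown is neither shown nor excluded. For Csn3 the effect in E0771-LG minus that in E0771 cells was 2.67 (SE 0.62, adjusted p = 0.0048 by limma), with a 95% CI of 1.35 to 3.99. It was the 1 member testable in both lines and passed, as did 34.7% of 10223 genes.

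**Figure D5:**
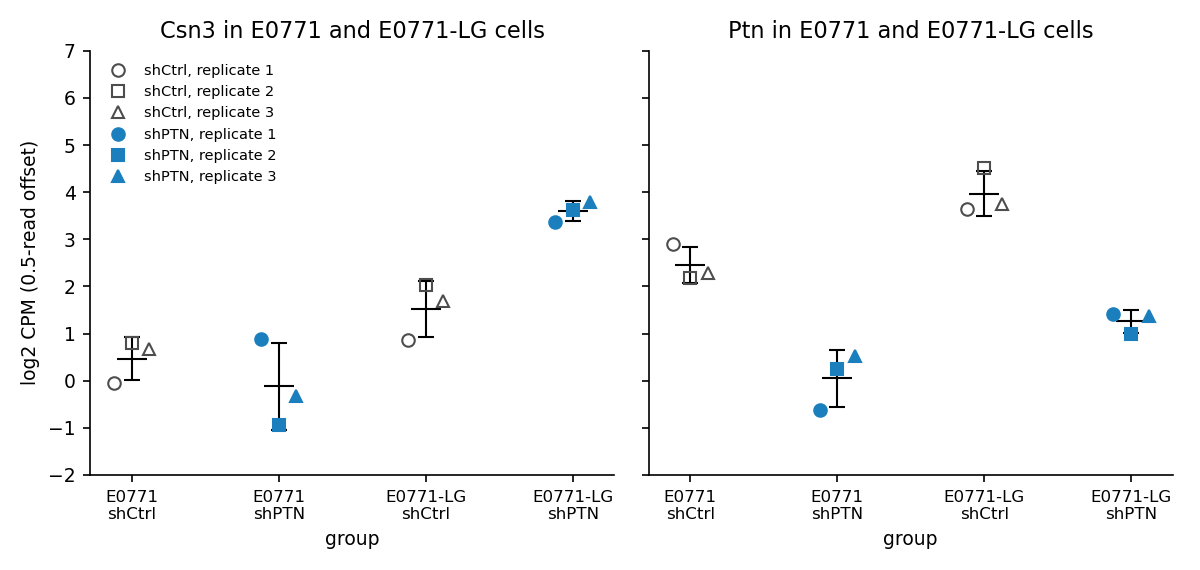
Log2 CPM of Csn3 and Ptn by cell line and hairpin, as points for samples and as means with SD bars (n = 3 each). For shCtrl and shPTN, Csn3 has means of 0.47 and −0.12 in E0771 and 1.52 and 3.60 in E0771-LG, and Ptn is lower with shPTN in both lines.

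Of 5 luminal epithelial genes tested in E0771-LG cells 4 rose and 0 fell, beside 46.4% of all genes that passed (median 1.57, against 0.05 over all genes). The 4 include Krt18, which passed the filter only on the strength of its shPTN samples. Krt18 rose by 3.00 (SE 0.32, adjusted p = 8.07e-05 by limma), or by 2.09 with a pseudocount of 1, on 13 to 18 reads per shCtrl and 117 to 150 reads per shPTN sample. It was too low to be tested in E0771 cells or between the control lines. Its shCtrl samples alone could not pass the filter, so it could enter this test only as a rise. No conclusion is drawn from its p-value. Krt18 is also 1 of the 5 genes in the median of 1.57, which is therefore not over the same genes as the median in E0771 cells. Krt8, its keratin partner, rose by 1.57 (SE 0.14, adjusted p = 3.88e-05) and the ETS factor Elf3 by 1.75 (SE 0.41, adjusted p = 0.00524). The summed level of the 16 genes was 162, 209 and 170 CPM in shCtrl and 433, 579 and 528 in shPTN samples, with Krt8 the most abundant. Cldn3 and Cldn4 stayed at 0 reads in all 6 samples, and Cldn7 was at 0 in the 3 shPTN samples. The interaction of knockdown and line was 1.62 for Krt8 (SE 0.18, adjusted p = 2.6e-05) and 1.50 for Elf3 (SE 0.58, adjusted p = 0.0568).

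In E0771-LG cells, beside 46.4% of all genes that passed, 2 of 3 milk secretion genes rose (median 0.32), namely Mfge8 by 0.63 (SE 0.21, adjusted p = 0.0381 by limma) and Plin2, a lipid droplet protein, by 0.32 (SE 0.12, adjusted p = 0.0474), and Xdh differed by −0.47 (SE 0.27, adjusted p = 0.189). Of 12 prolactin and STAT5 genes 4 fell and 0 rose (median −0.28). Ptpn11, the phosphatase SHP2, fell by 1.01 (SE 0.10, adjusted p = 6.95e-05), Nr3c1, the glucocorticoid receptor, by 0.92 (SE 0.14, adjusted p = 0.000465), and Ccnd1 by 0.46 (SE 0.10, adjusted p = 0.00282). Of 3 hormone-sensing genes 1 rose (median 0.31), Xbp1 by 0.66 (SE 0.18, adjusted p = 0.0148), while Tbx3 was at 0.31 (SE 0.14, adjusted p = 0.0823) and Areg at −0.04 (SE 0.18, with 0.16 without shCtrl replicate 2 and 0.10 without shPTN replicate 1). Mfge8 no longer passed without any 1 of the 3 shPTN samples (0.68, 0.60 and 0.61 for replicates 1, 2 and 3), with no filter (adjusted p = 0.0535) or by eBayes with neither trend nor robust (adjusted p = 0.0565), and was 0.37 without shCtrl replicate 1. Plin2 passed in 1 of the 6 fits that leave out a sample and otherwise lay between 0.22, without shCtrl replicate 3, and 0.37, without shPTN replicate 3. It also no longer passed with no filter (adjusted p = 0.0717), after median-of-ratios scaling (0.29, adjusted p = 0.0637) or by eBayes with neither trend nor robust (adjusted p = 0.0869). Xbp1 no longer passed without shCtrl replicate 1 (0.61) or shPTN replicate 2 (0.61) or 3 (0.57), while Xdh was at −0.17 without shCtrl replicate 2 and passed without shCtrl replicate 1 (−0.69) and with the replicate number as a block (adjusted p = 0.0405).

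Lists of other cell types were measured in the same cells, in which 46.4% of all genes passed. Basal and myoepithelial genes had 1 rise and 2 falls among 5 (median −0.63), with sums of 88.1, 62.7 and 78.7 CPM in shCtrl and 32.9, 38.4 and 36.3 in shPTN samples, and Acta2 the most abundant gene in shCtrl and Snai2 in shPTN. Fibroblast genes had 1 rise and 2 falls among 6 (median −0.56), with sums of 92, 145 and 107 CPM against 58.3, 66.2 and 73.6 and Pdgfra the most abundant. Leukocyte genes had 2 rises and 1 fall among 4 (median 0.85), while their sum was 94.4, 92.5 and 95.6 CPM in shCtrl and 56.4, 67.1 and 67 in shPTN samples, with Laptm5 the most abundant and Adgre1 and S100a9 at 0 reads in all 6 samples. Adipocyte genes had 1 fall among 2 (median −1.16), skeletal muscle genes 1 fall among 2 (median −0.06), and 0 of 1 endothelial gene passed (0.22). The part of these genes in the rise of Csn3 was not tested.

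Control cells of the lines were compared to ask how E0771-LG differs from its parent line. The shCtrl samples are the same as in the knockdown comparisons. Of 2 members tested 0 passed by limma, 1, Csn3, had an unadjusted p under 0.05, as 6275 genes did, and 54.5% of 10411 genes passed. The median over all genes was −0.15, and about 0.00 after median-of-ratios scaling. Csn3 was higher in each E0771-LG than in each E0771 shCtrl sample, a separation seen for 63.6% of genes, by 1.05 (SE 0.42, adjusted p = 0.054 by limma), 2.07-fold. Leaving out single samples gave 0.79 (adjusted p = 0.163), without E0771 shCtrl replicate 1, to 1.38 (adjusted p = 0.0138), without E0771-LG shCtrl replicate 1, and Csn3 passed only in the last of these 6 fits. Of the 9 other alternatives it passed in 6, from 0.70 (adjusted p = 0.0377) with a pseudocount of 1 to 1.54 (adjusted p = 0.00417) after quantile normalization, and did not pass with no filter, by voom or in a fit of 12 samples together. Gata3 differed by −0.88 (SE 0.58, adjusted p = 0.221) with overlapping groups, and passed in 1 of 15 alternatives, without E0771 shCtrl replicate 1 (−1.49, adjusted p = 0.0356). Without E0771 shCtrl replicate 3 it was −0.37 (adjusted p = 0.655). Ptn rose by 1.51 (SE 0.28, adjusted p = 0.0012).

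The mammary lists were also compared between the control cells, where 54.5% of all genes passed. Of 4 milk secretion genes 1 was higher in E0771-LG cells and 2 were lower (median −0.82): Plin2 rose by 0.46 (SE 0.12, adjusted p = 0.00933 by limma), Xdh fell by 1.52 (SE 0.25, adjusted p = 0.00161) and the mucin Muc1 fell by 2.69 (SE 0.59, adjusted p = 0.00344), or by 0.97 with a pseudocount of 1. Muc1 was near 0 in E0771-LG shCtrl cells, with 2, 4 and 5 reads against 21, 33 and 21 in E0771 shCtrl cells, so the size of its fall is uncertain. It passed the filter only through the E0771 samples and could enter this test only as a fall. No conclusion is drawn from its p-value, though it is 1 of the 2 genes counted as lower. It is also 1 of the 4 genes in the median of −0.82, so no fall of the list as a whole is concluded. Of 12 prolactin and STAT5 genes 2 rose and 4 fell (median −0.06), among them Ghr (−1.75, SE 0.16), the phosphatase Ptpn1 (−0.80, SE 0.10) and Socs3 (0.91, SE 0.15). Of 3 hormone-sensing genes 2 rose (median 0.63), Tbx3 by 1.73 (SE 0.18) and Xbp1 by 0.63 (SE 0.16), and Areg differed by −0.00 (SE 0.33, and from −0.36 to 0.27 when single samples were left out, without E0771 shCtrl replicate 1 or 2). Of 4 luminal epithelial genes 2 rose and 1 fell (median 0.82), with Epcam at 0.95 (SE 0.18), Krt8 at 0.69 (SE 0.12) and Elf3 at −1.26 (SE 0.45, adjusted p = 0.0362). Elf3 had overlapping groups, and no longer passed without E0771 shCtrl replicate 2 (−0.92) or 3 (−1.24), without E0771-LG shCtrl replicate 1 (−0.88) or 2 (−1.30), after quantile normalization (−0.72), with no filter (adjusted p = 0.067) or by eBayes with neither trend nor robust (adjusted p = 0.0512). Of the other lists, 2 of 4 basal genes rose (median 0.51) and 1 of 2 adipocyte genes rose (median 1.50). Of 4 leukocyte genes 1 rose and 2 fell (median −0.66), and of 4 fibroblast genes 2 rose and 2 fell (median 0.04). Of 2 skeletal muscle genes 1 rose and 1 fell (median 1.06). Their sum was 1.97, 1.57 and 3.13 CPM in E0771 shCtrl samples, mostly Mylpf. In E0771-LG shCtrl samples it was 5.32, 3.52 and 2.69 CPM, mostly Acta1. Each of these 2 genes passed the filter through 1 line only and could enter only in the direction it took, so no conclusion is drawn from them.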

How the data were processed

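Per the labels, the authors sequenced RNA of 24 samples on Illumina HiSeq, aligned it to mm10 (GRCm38) with HISAT2, counted reads with featureCounts and used edgeR and limma. The authors deposited log2 values for 12091 genes; the step that made them and the gene filter are not stated. In 18 samples whole reads were recovered to within 0.01 by undoing log2 CPM with an offset of 0.5 reads; the 4T1 values are on another scale, which was inferred from the values.

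Each comparison was fitted with limma 3.58.1 in R 4.3.3 (lmFit, eBayes with trend and robust, two-sided) on its own samples, over genes that pass a filter: taken off the log scale, a value had to exceed the minimum of its own sample by 1 or more in 3 or more of 6 samples, with Benjamini-Hochberg adjustment over all genes tested and a threshold of 0.05. Differences between models or lines are interaction terms. The procedure was also run on simulated data, of which no outcome is given here. Tables and plots used Python 3.11.15, numpy 2.4.6, pandas 2.3.3, scipy 1.17.1 and matplotlib 3.10.9; positions and transcript lengths (longest principal transcript) are from GENCODE M21.

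The members and lists were chosen with earlier results of these data known. The genes named are the members, Ptn, the 6 genes most correlated with the mean of the milk protein members in MMTV-PyMT tumors, and, from each list and comparison, those that passed first and then those with the smallest unadjusted p, at most 6. Of these the text names the first 3 of the 4 mammary epithelial lists; the number 3 and the restriction to these lists were set after values were seen, and the 6 lists of other cell types are given by counts, medians, sums, the most abundant gene and genes at 0. Casein genes in the span from Csn1s1 to Csn3 were named for their position. Alternatives were pseudocounts of 1 and 0.1, no filter, median-of-ratios and quantile scaling, voom on recovered reads, eBayes with neither trend nor robust, a replicate block, a fit of 12 samples together, and leaving out each sample.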

Additional observations from a re-analysis of the deposited data

Results flagged for a closer look

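The effect of shPTN differed between E0771-LG and E0771 cells by the interaction term of limma in 34.7% of all 10223 genes tested. In the mammary lists 0 of 3 milk secretion, 4 of 12 prolactin and STAT5, 2 of 3 hormone-sensing and 1 of 4 luminal epithelial genes passed, as did the 1 member tested, Csn3. In the lists of other cell types 4 of 5 fibroblast, 3 of 4 leukocyte and 1 of 3 basal and myoepithelial genes passed, and 0 of 2 adipocyte and 0 of 1 skeletal muscle genes did. The differences of those that passed ran from −5.70 to 3.09, and some were larger than those given here. Csn3 differed by 2.67 (SE 0.62, adjusted p = 0.0048), from −0.59 in the parent line to 2.07 in E0771-LG. Krt8 differed by 1.62 (SE 0.18), with −0.05 and 1.57 in the same order. Areg also differed by 1.62 (SE 0.43), having fallen by 1.66 in E0771 cells and lying at −0.04 in E0771-LG cells. Xbp1 differed by 0.75 (SE 0.21), with −0.09 and 0.66. Ccnd1 differed by −0.96 (SE 0.12) and passed in opposite directions, at 0.49 in E0771 and −0.46 in its derivative. Cav1 differed by −0.74 (SE 0.15), with 0.81 and 0.07. Ptpn11 differed by −0.70 (SE 0.12), with −0.31 and −1.01, and Nr3c1 by −0.70 (SE 0.17), with −0.22 and −0.92. Each line had 3 samples per group, and separate selection of the populations cannot be told apart from the hairpin.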

How the results depend on the processing

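Of 113 alternative counts of members that passed, 105 equalled the count given. The 8 others were all for E0771-LG against E0771 control cells, where the count was 1 in place of 0 with a pseudocount of 1 or 0.1, median-of-ratios or quantile scaling, eBayes with neither trend nor robust, or the replicate block, and between 0 and 1 when single samples were left out. Csn3 was the gene that passed there, except without E0771 shCtrl replicate 1, where it was Gata3. The cause was not tested. In the tumor comparisons and the difference between the tumor models at most 2 of all genes passed by limma under any alternative. Their counts of 0 members therefore had little room to move. Of 1374 alternative differences of single genes, 1297 kept their direction and side of the threshold, 33 no longer passed, 15 newly passed and 29 changed sign.

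Every sign change came from leaving out a single sample, except for Areg between the control lines, which was 0.15 after median-of-ratios and 0.21 after quantile scaling. Leaving out single samples gave these ranges for the results that changed sign. In MMTV-PyMT tumors they were −0.38 to 0.88 for Lalba, −0.22 to 0.35 for Gata3, −1.57 to 0.13 for Erbb4, −0.06 to 0.33 for Xbp1 and −0.88 to 0.36 for Prom1. In 4T1 tumors they were −0.20 to 0.46 for Lalba, −0.56 to 0.25 for Areg and −0.01 to 0.14 for Xbp1. In E0771 cells they were −0.66 to 0.45 for Gata3, −0.44 to 0.00 for Muc1 and −0.10 to 0.59 for Elf3. For Areg they were −0.14 to 0.16 in E0771-LG cells and −0.36 to 0.27 between the control lines. For the difference between the tumor models they were −0.61 to 0.65 for Lalba and −0.51 to 0.06 for Gata3. None of these results passed in the fit given in the report, and the cause of the changes was not tested.

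The rise of Csn3 in E0771-LG cells kept its direction and passed in all 15 alternatives run for it, with differences from 1.74 (pseudocount 1) to 2.32 and adjusted p-values from 5.02e-05 to 0.00481. Its difference between the lines passed in all 20, from 2.02 to 3.17, with adjusted p-values from 0.000816 to 0.0158. In MMTV-PyMT tumors, leaving out single samples gave 1.79 to 3.15 for Csn1s1 and 1.91 to 4.62 for Csn2, with adjusted p-values of at least 0.931 for Csn1s1 and 0.998 for Csn2 over all alternatives. With the replicate number as a block, Csn3 differed by 2.07 in E0771-LG cells (adjusted p = 9.5e-05), by 1.05 between the control lines (adjusted p = 0.0294) and by 2.67 between the knockdown effects (adjusted p = 0.00823). The labels give no pairing of these numbers, and across genes the deviations of same-numbered samples correlated by between −0.327 and 0.436. With that block, Areg and Tbx3 no longer passed in E0771 cells (adjusted p = 0.0761 and 0.058), while Epcam passed there (adjusted p = 0.0408) and Xdh in E0771-LG cells (adjusted p = 0.0405).

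Voom was not run for the 4T1 tumors or the difference between the tumor models, whose reads are unknown, nor the fit of 12 samples together for differences between models or lines. With 3 samples per group, the groups in each tumor model give wide intervals, and the test covers only members above the filter: 2 in 4T1 tumors and at most 2 in cells. Csn3 and Gata3 rest on 7 to 241 reads per cell sample. The 4T1 depth is unknown. Exon overlaps of Csn3, Gata3 and Prlr with other genes were not resolved, since the counting strand is not stated.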

Other observations

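The difference of the 3B10 effect between the models, MMTV-PyMT minus 4T1, was below zero for 13 of 14 luminal epithelial genes (median −0.55, against 0.04 over all genes), for 5 of 5 skeletal muscle genes (median −2.66) and for 7 of 7 fibroblast genes (median −0.45), and above zero for 9 of 9 leukocyte genes (median 0.63). By limma 0 genes of these lists passed. At an unadjusted p under 0.05 there were 4 luminal, 5 skeletal muscle, 0 fibroblast and 0 leukocyte genes. Prolactin and STAT5 genes were above zero in 12 of 15 (median 0.15, 1 at an unadjusted p under 0.05), adipocyte genes in 3 of 3 (median 0.76, 1 at an unadjusted p under 0.05), basal and myoepithelial genes in 2 of 8 (median −0.30), endothelial genes in 3 of 4 (median 0.32), hormone-sensing genes in 3 of 3 (median 0.09) and milk secretion genes in 3 of 5 (median 0.06). The last 4 lists had 0 genes at an unadjusted p under 0.05, and in these 6 lists too 0 genes passed by limma.

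Ptn in 4T1 tumors was too low to be tested, with deposited values of −0.19, −0.65 and −0.12 in C44 and −0.76, 0.86 and 0.37 in 3B10 tumors.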
